A study of Homo sapiens with 15 samples.

Results

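TNF, LTA, LTB, TNFRSF1A and TNFRSF1B encode the cytokine TNFα, the 2 lymphotoxin chains and the 2 TNF receptors. They were taken as the 5 rows bearing these symbols among the 26485 gene symbols of an RNA-seq count table. The table covered 15 libraries from U937 and ML1, human leukemia cell lines that the labels place under acute myeloid leukemia. There were 5 groups of 3 libraries each. The first was U937 with 10 nM prexasertib and 350 nM LSN622666 (the combination), followed by U937 with 10 nM prexasertib and U937 with diluent. The other groups were ML1 with 10 nM prexasertib and ML1 with diluent. Prexasertib is an inhibitor of the checkpoint kinase CHK1, and LSN622666 is a compound known here by its code name alone. Every culture, diluent included, also received 5 µM Q-VD-OPh, a pan-caspase inhibitor, and treatment lasted 24 h. No group had LSN622666 without prexasertib, and ML1 had no combination group. The series design concerns candidate transcription factors of TNF.

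TNFα is made as a trimer on the cell surface and released by the protease ADAM17. It binds TNFR1, the product of TNFRSF1A, which carries a death domain and is found on most cells. It also binds TNFR2, the product of TNFRSF1B, which lacks a death domain and is found mainly on blood and endothelial cells. Lymphotoxin alpha (LTA) is secreted as a homotrimer that binds the same receptors. Joined with lymphotoxin beta (LTB), which anchors it in the membrane, it instead binds the lymphotoxin beta receptor and turns on the non-canonical NF-kB pathway. Monocytes and macrophages are a main source of TNFα, and lymphocytes of the lymphotoxins.

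Library totals were between 49011222 and 87301014 counts, and all 5 genes passed the low-count filter that left 17243 genes for testing. Levels are given as CPM, read counts scaled for library size with edgeR's TMM factors. The labels do not say that replicates were separate cultures, so the p-values measure the spread between these libraries, which may be technical. Myeloid identity was checked on 18 markers, of which 16, 16 and 15 averaged at least 1 CPM in U937 with the combination, prexasertib and diluent, and 18 and 17 in ML1 with prexasertib and diluent. MPO, the myeloperoxidase gene of granulocyte precursors, was low in U937 (3.816, 4.598 and 2.511 CPM with the combination, prexasertib and diluent) and abundant in ML1 (508 CPM with prexasertib and 948 CPM with diluent). The monocyte gene CD14 averaged 0.667 CPM in U937 with the combination, 1.25 CPM with prexasertib and 0.240 CPM with diluent. In ML1 CD14 averaged 5.3 CPM with prexasertib and 0.186 CPM with diluent. CEBPA, a myeloid transcription factor gene, averaged 390 CPM in U937 with the combination, 305 CPM with prexasertib and 398 CPM with diluent, and in ML1 329 CPM with prexasertib and 351 CPM with diluent. The T cell genes CD3D and CD3E had 0 counts in all 15 libraries. Other lymphocyte markers were present in U937, where NKG7 averaged 132, 136 and 173 CPM and CD4 150, 105 and 138 CPM with the combination, prexasertib and diluent. U937 prexasertib replicate 2 stood apart in having the most genes with at least 1 count (21023, against 17419 to 20220 in the other libraries).

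LTA, TNF and LTB lie next to each other on chromosome 6 within the major histocompatibility complex (GRCh38, GENCODE v29). LTA spans 31572054 to 31574324 on the plus strand, and 1242 bases separate its end from TNF, at 31575567 to 31578336 on the same strand. LTB lies on the minus strand at 31580525 to 31582522 and points towards TNF, with 2188 bases between its 3′ end and the end of TNF. TNFRSF1A lies on the minus strand of chromosome 12 at 6328757 to 6342114, and TNFRSF1B on the plus strand of chromosome 1 at 12167003 to 12209228. No exon of the first 4 genes overlaps an exon of another gene, while TNFRSF1B overlaps the microRNA gene MIR7846 over 36 exon bases.

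The promoter sequence is shown for TNF because the series is about factors that act on it. The RefSeq window (GRCh38.p14, chr6:31575315-31575564, plus strand) holds the 250 bases before the TNF start, with the matches to TGAGCTCA (bases -110 to -103) and TATAAA (-29 to -24) in capitals.
TNF: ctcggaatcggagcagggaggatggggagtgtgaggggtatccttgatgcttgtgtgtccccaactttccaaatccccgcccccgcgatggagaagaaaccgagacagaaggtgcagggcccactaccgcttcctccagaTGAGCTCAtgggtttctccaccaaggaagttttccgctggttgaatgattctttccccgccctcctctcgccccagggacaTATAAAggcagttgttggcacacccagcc
TGAGCTCA, which differs in its centre from the cyclic AMP response element TGACGTCA, is the site at which ATF2 and JUN dimers are known to bind the TNF promoter. Since the letters searched are those of the TNF site itself, the match in TNF was fixed beforehand. TGAGCTCA was present in 204 of 35116 RefSeq promoter windows of this length (0.581%), on either strand. TATAAA was in 10.7% of windows, and the TNF window also matched the EGR motif GCGNGGGCG, on the opposite strand at -173 to -165, as did 8.41% of windows. Neither TGACGTCA (1.65% of windows) nor the AP-1 motif TGANTCA (6.57%) occurred in the TNF window.

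The NF-kB consensus, present in 9.96% of windows, was matched in the windows of both lymphotoxin genes and not in the 250 bases of TNF, TNFRSF1A or TNFRSF1B. These stretches, of 30 bases each with the matched bases in capitals, show where. The LTA stretch (chr6:31572176-31572205, plus strand) holds 2 overlapping matches at -104 to -94 from the second of its RefSeq starts, and the LTB stretch (chr6:31582492-31582521, minus strand) holds 1 match at -86 to -77.
LTA: ctaagccctGGGGGCTTCCCcgggccccag
LTB: aggggtgtgcGGAAAGTCCCagccaggtgt
A match describes the letters in these windows and does not show binding, and a missing match to this pattern does not exclude it.

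The transcripts also differ in their 3′ untranslated regions. AU-rich elements there, built of ATTTA repeats, are known to shorten the life of cytokine mRNAs. TNF held 9 ATTTA and 5 copies of the nonamer TTATTTATT in 799 bases, LTA held 3 and 1 in 631 bases, and LTB, TNFRSF1A and TNFRSF1B held 0 of either in 154, 555 and 2208 bases. The nonamer was present in 1362 of 19132 annotated genes (7.12%). The densest stretch of TNF, of 30 bases from base 462 of the untranslated region, is printed with its ATTTA copies in capitals.
TNF: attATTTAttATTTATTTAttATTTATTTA
The 2 genes that hold the nonamer were those that rose with prexasertib in both lines, as described next. LTB and TNFRSF1B, which lack it, were called higher in ML1 only. A link was not tested, and mRNA stability was not measured here.

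Prexasertib raised TNF, LTA, LTB and TNFRSF1B in ML1 and left TNFRSF1A without a call. TNF stood at 165, 262 and 167 CPM in ML1 with prexasertib, against 5.77, 3.83 and 2.2 CPM in ML1 with diluent. All treated libraries lay above all diluent libraries, and the log2 fold change was 5.65 ± 0.38 (SE, adjusted p = 6.34e-08, edgeR quasi-likelihood test with Benjamini-Hochberg adjustment, as for every adjusted p here). Of all tested genes, 1.77% had a larger absolute change. In bulk RNA, here and below, fewer cells of a type and less RNA per cell cannot be told apart. LTA stood at 5.10, 4.26 and 4.68 CPM with prexasertib, against 0.391, 0.226 and 0.178 CPM with diluent. The groups were again far apart, with little spread among the treated libraries, and LTA rose by 4.14 ± 0.49 on the log2 scale (adjusted p = 2.87e-06).

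LTB, the membrane anchor of lymphotoxin, was at 3.95, 6.53 and 4.64 CPM in ML1 with prexasertib, against 2.77, 2.31 and 2.61 CPM with diluent. The ranges did not overlap, and the log2 fold change was 0.98 ± 0.25 (adjusted p = 0.00414). TNFRSF1B, the gene of TNFR2, was at 145, 237 and 168 CPM with prexasertib, against 146, 117 and 115 CPM with diluent. Here the lowest treated library lay just below the highest diluent library, and the call (0.54 ± 0.16, adjusted p = 0.00868) was lost without prexasertib replicate 2 (0.29, adjusted p = 0.0995). TNFRSF1A, the gene of TNFR1, was at 92.2, 159 and 137 CPM with prexasertib, against 104, 148 and 136 CPM with diluent. The libraries of the groups interleaved, and the 95% interval of the log2 fold change ran from -0.39 to 0.39 (adjusted p = 1). Thus 4 of the 5 genes were called higher in ML1, in a comparison in which 25.3% of all tested genes were called higher and 48.8% were called in either direction.

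**Figure D1:**
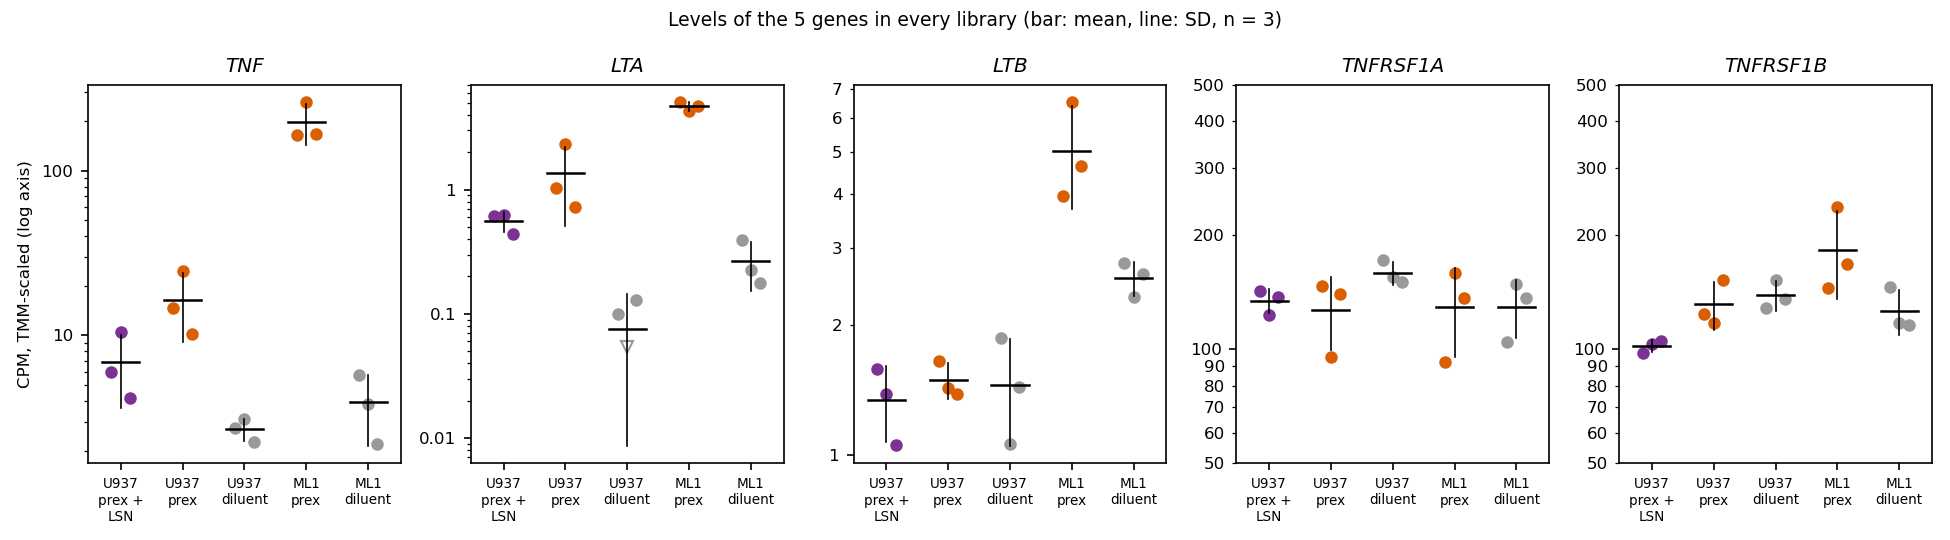
TMM-scaled CPM (log axis) of each gene in each library, with the group mean as a bar and the SD as a line (n = 3; prex, prexasertib; LSN, LSN622666). The open triangle marks the LTA library with 0 counts at its upper limit of 0.054 CPM, and TNF in ML1 with prexasertib (165 to 262 CPM) stands above every other group while the 2 receptors stay between 92.2 and 237 CPM throughout.

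In U937, prexasertib raised TNF and LTA only, of the 5 genes. TNF stood at 14.7, 24.6 and 10.2 CPM with prexasertib, against 2.73, 3.11 and 2.27 CPM with diluent. The lowest treated library was well above the highest diluent library, and TNF rose by 2.61 ± 0.39 (log2, adjusted p = 0.00036). LTA stood at 1.03, 2.33 and 0.723 CPM with prexasertib, against 0.1001, 0 and 0.1283 CPM with diluent. These diluent levels rest on 7, 0 and 6 counts, and the library with none allows up to 0.054 CPM (3 counts, counting error only). LTA rose by 4.14 ± 0.65 (adjusted p = 0.000103).

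LTB was at 1.65, 1.43 and 1.39 CPM in U937 with prexasertib, against 1.86, 1.06 and 1.43 CPM with diluent, and the groups overlapped. Its log2 fold change was 0.03 ± 0.27 (adjusted p = 0.943, 95% interval -0.53 to 0.59). TNFRSF1A was at 146, 95.1 and 140 CPM with prexasertib, against 171, 155 and 150 CPM with diluent. All treated libraries lay below the diluent libraries, with no call (-0.32 ± 0.18, adjusted p = 0.192), and prexasertib replicate 2 was the lowest. TNFRSF1B was at 124, 117 and 152 CPM with prexasertib, against 128, 152 and 135 CPM with diluent, and these overlapped (-0.08 ± 0.16, adjusted p = 0.732). The 2 of 5 genes called higher compare with 18.3% of all tested genes called higher and 31.1% called in either direction.

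Whether the prexasertib effect differed between the lines was tested as an interaction, in which 24.7% of genes were called. TNF was the 1 called member, with an effect that differed by -3.05 ± 0.54 on the log2 scale (U937 minus ML1, adjusted p = 0.000791). For LTA the effects were alike in size (4.14 in each line), but the 95% interval of their difference, -1.72 to 1.71, was wide. For LTB the difference was -0.94 ± 0.37 (adjusted p = 0.0707), which became a call without ML1 prexasertib replicate 1 (-1.10, adjusted p = 0.0444) or U937 diluent replicate 2 (-1.16, adjusted p = 0.0353) and in DESeq2 (adjusted p = 0.0395). For TNFRSF1B it was -0.62 ± 0.22 (adjusted p = 0.0506). That difference was called with DESeq2 (adjusted p = 0.0328), with other scalings (0.0419 and 0.0486), with the stricter filter (0.0406), and without ML1 diluent replicate 1 (-0.73, 0.0331), ML1 prexasertib replicate 1 (-0.76, 0.0143) or U937 prexasertib replicate 3 (-0.74, 0.0255). For TNFRSF1A it was -0.32 ± 0.26 (adjusted p = 0.413).

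The addition of LSN622666 to prexasertib in U937 lowered TNF and LTA relative to prexasertib alone. TNF stood at 5.98, 10.4 and 4.17 CPM with the combination, against 14.7, 24.6 and 10.2 CPM with prexasertib. The highest combination library lay just above the lowest prexasertib library, but each was below the prexasertib library of the same number, and TNF fell by 1.27 ± 0.37 (log2, adjusted p = 0.0204). LTA stood at 0.612, 0.629 and 0.438 CPM with the combination, against 1.03, 2.33 and 0.723 CPM with prexasertib. Every combination library lay below every prexasertib library, and LTA fell by 1.28 ± 0.46 (adjusted p = 0.0444).

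Both calls depended on single libraries. Without prexasertib replicate 2, the library with the highest TNF and LTA of its group, TNF was at -0.86 (adjusted p = 0.0965) and LTA at -0.64 (adjusted p = 0.342). TNF also lost its call without combination replicate 1 (-1.18, adjusted p = 0.0747) or 3 (-1.01, adjusted p = 0.0887), and with no low-count filter (adjusted p = 0.0646). LTA lost it without combination replicate 1 (-1.35, adjusted p = 0.0806), 2 (-1.37, adjusted p = 0.0694) or 3 (-1.13, adjusted p = 0.147), with upper-quartile scaling (adjusted p = 0.0598), and in a fit to these 2 groups (adjusted p = 0.0743).

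TNFRSF1B was at 97.6, 103 and 105 CPM with the combination, against 124, 117 and 152 CPM with prexasertib. The groups did not overlap and the log2 fold change was -0.36 ± 0.16, which was not called (adjusted p = 0.0902). With the replicate number as a block, which the data allow for these groups, the value was -0.35 and was called (adjusted p = 0.00632). LTB was at 1.58, 1.38 and 1.06 CPM with the combination, against 1.65, 1.43 and 1.39 CPM with prexasertib, and overlapped (-0.15 ± 0.26, adjusted p = 0.698). TNFRSF1A was at 142, 123 and 137 CPM with the combination, against 146, 95.1 and 140 CPM with prexasertib, and also overlapped (0.08 ± 0.18, adjusted p = 0.784). In this comparison 17.1% of tested genes were called lower and 29% in either direction.

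Against diluent, TNF and LTA were higher in the combination. The diluent libraries are those used for prexasertib against diluent. TNF was 1.34 ± 0.40 higher on the log2 scale (adjusted p = 0.0439) and LTA 2.86 ± 0.66 higher (adjusted p = 0.00778). All combination libraries lay above all diluent libraries for both genes, and 6.88% of tested genes were called higher (4.11% lower, 11% in either direction). The TNF call was lost when low-count genes were kept (adjusted p = 0.116), without diluent replicate 1 (1.32, 0.0987), 2 (1.42, 0.11) or 3 (1.19, 0.134), and without combination replicate 1 (1.39, 0.104) or 2 (0.90, 0.152). The LTA call remained when each library was left out (adjusted p up to 0.0353). LTB was at -0.12 ± 0.27 (adjusted p = 0.802). Both receptors lay below diluent in all combination libraries with no call, TNFRSF1A at -0.24 ± 0.18 (adjusted p = 0.404) and TNFRSF1B at -0.44 ± 0.16 (adjusted p = 0.0744). The TNFRSF1B difference was called with DESeq2 (adjusted p = 0.0451) and in a fit to these 2 groups (adjusted p = 0.0268).

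**Figure D2:**
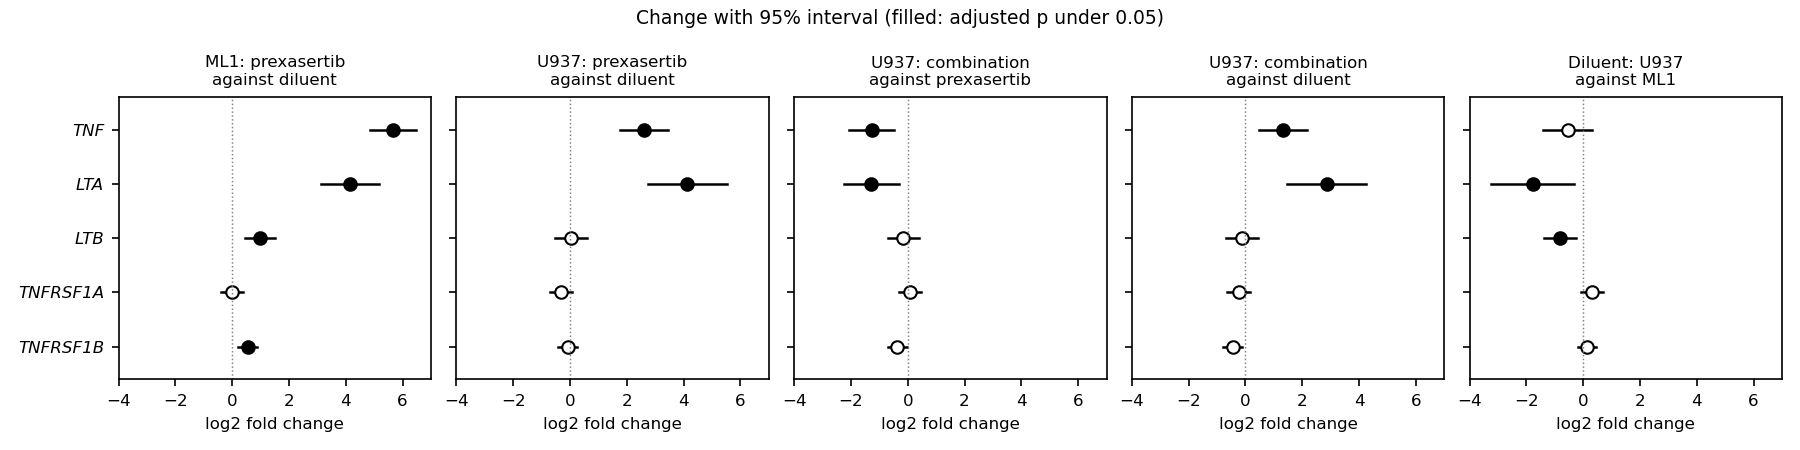
Log2 fold change (horizontal axis) of the 5 genes in 5 comparisons, with 95% intervals; filled points have an adjusted p under 0.05. TNF and LTA lie right of 0 in both prexasertib comparisons (5.65 and 4.14 in ML1, 2.61 and 4.14 in U937) and left of 0 for the combination against prexasertib (-1.27 and -1.28), while the receptors stay within 0.54 of 0 in all 5.

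With diluent, U937 had less lymphotoxin mRNA than ML1. LTA was lower by a log2 fold change of -1.78 ± 0.69 (adjusted p = 0.0254) and LTB by -0.81 ± 0.26 (adjusted p = 0.0122), with every U937 library below every ML1 library. These 2 of 5 calls stand beside 29.4% of genes called lower, 32% called higher and 61.4% called in either direction. Without U937 diluent replicate 2, which has 0 LTA counts and the lowest LTB, neither was called (LTA -1.22, adjusted p = 0.0904; LTB -0.64, adjusted p = 0.0676). LTA was also not called without ML1 diluent replicate 1 (-1.41, adjusted p = 0.104). TNF (-0.54 ± 0.40, adjusted p = 0.263), TNFRSF1A (0.30 ± 0.18, adjusted p = 0.176) and TNFRSF1B (0.14 ± 0.16, adjusted p = 0.469) were not called. TNFRSF1A was higher in all U937 libraries and was called in a fit to these 2 groups (0.30, adjusted p = 0.0445).

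Divided by exon length, the levels can be compared between the 5 genes. In U937 with diluent, the receptor genes stood at 39.7 ± 2.76 (TNFRSF1A) and 36.8 ± 3.25 (TNFRSF1B) CPM per kb, above TNF (1.61 ± 0.253), LTB (0.946 ± 0.260) and LTA (0.0438 ± 0.0388; SD, n = 3, here and below). On this scale the receptors did not differ from each other beyond their spread. In ML1 with diluent TNFRSF1B (33.5 ± 4.53) and TNFRSF1A (32.3 ± 5.64) also came first and did not differ beyond their spread, nor did TNF (2.35 ± 1.07) and LTB (1.67 ± 0.150), and LTA (0.152 ± 0.0643) was again lowest. With prexasertib, TNF came first in ML1 at 118 ± 33.1 CPM per kb, ahead of TNFRSF1B (48.6 ± 12.7) and TNFRSF1A (32.3 ± 8.47). LTB (3.28 ± 0.871) and LTA (2.69 ± 0.241) were then close together. In U937 TNF stayed below both receptors, at 4.09 ± 1.92 with the combination and 9.85 ± 4.40 with prexasertib.

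Over the 5 groups, mean TNF mRNA ordered ML1 prexasertib, U937 prexasertib, U937 combination, ML1 diluent and U937 diluent, and each neighbouring pair below the first overlapped in its libraries. LTA followed the same order at lower levels. It overlapped between none of the neighbouring groups, the lowest ML1 diluent library (0.178 CPM) being above the highest U937 diluent library (0.128 CPM). The order for LTB was ML1 prexasertib, ML1 diluent and then the 3 U937 groups, which overlapped one another.

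The share of TNF among the ligand mRNAs was higher in prexasertib libraries than in diluent libraries. TNF made up 94.7, 95.9 and 94.6% of the summed length-scaled level of TNF, LTA and LTB in ML1 with prexasertib, against 62.9, 58.3 and 42.2% with diluent. In U937 it made up 72.0, 83.2 and 72.6% with the combination, 84.1, 86.6 and 82.2% with prexasertib and 56.2, 72.9 and 57.3% with diluent. The prexasertib libraries lay above the diluent libraries in each line, at the smallest p that an exact two-sided permutation test of 3 against 3 allows (p = 0.1, adjusted over 7 such ratio comparisons p = 0.175). For the combination against prexasertib the groups overlapped, although each combination share was below the prexasertib share of the same number (exact permutation test without pairing p = 0.2, adjusted p = 0.233).

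The balance of the receptor mRNAs was taken as TNFRSF1B over TNFRSF1A, both in CPM per kb of exon length. Its size depends on the exon lengths used, so only groups are compared. The balance was 0.730, 0.890 and 0.812 in U937 with the combination, against 0.901, 1.31 and 1.16 with prexasertib. Those groups did not overlap (exact two-sided permutation p = 0.1, adjusted p = 0.175). With U937 diluent it was 0.795, 1.04 and 0.956, which overlapped prexasertib (exact p = 0.3, adjusted p = 0.3). In ML1 it was 1.67, 1.59 and 1.30 with prexasertib, against 1.49, 0.840 and 0.903 with diluent, and these overlapped as well (exact p = 0.2, adjusted p = 0.233).

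The counts of related genes given next stand beside those over all tested genes. With prexasertib 25.3% rose and 23.5% fell in ML1, and 18.3% rose and 12.8% fell in U937, while 11.9% rose and 17.1% fell for the combination against prexasertib. The TNF receptors signal through a set of proximal proteins, and all 30 of the genes listed for these were tested. With prexasertib in ML1 16 rose and 5 fell, with a median log2 fold change of 0.44, against 0.02 over all tested genes. TNFAIP3, which encodes the ubiquitin-editing enzyme A20 that restrains TNFR1 signalling, averaged 838 ± 87.8 CPM with prexasertib and 5.31 ± 0.427 CPM with diluent. BIRC3 (cIAP2), a ubiquitin ligase of the TNFR1 complex, averaged 57.4 ± 15.5 CPM with prexasertib and 0.241 ± 0.117 CPM with diluent. TNIP1, a partner of A20, rose by 1.54 ± 0.12 and RBCK1 (HOIL-1), part of the linear ubiquitin ligase, by 1.34 ± 0.10.

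Of the 30 genes, 11 rose in U937 with prexasertib and 3 fell (8 and 1 without prexasertib replicate 2), with a median of 0.11. TNFAIP3 rose by 3.66 ± 0.28, BIRC3 by 3.45 ± 0.31 and CYLD, a deubiquitinase that acts on the same complex, by 1.62 ± 0.21 (adjusted p from 1.82e-06 to 5.14e-05). With the combination against prexasertib 5 rose and 13 fell (3 and 9 without prexasertib replicate 2), with a median of -0.24. TNFAIP3 fell by 2.43 ± 0.28, BIRC3 fell by 2.40 ± 0.29 and CYLD fell by 1.54 ± 0.21.

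On the lymphotoxin side, 12 of 13 genes of the lymphotoxin beta receptor and the non-canonical NF-kB arm were tested. With prexasertib 10 rose and 1 fell in ML1, with a median log2 fold change of 1.96. NFKB2 and RELB, which encode the subunits of the non-canonical dimer, rose by 4.89 ± 0.21 and 6.07 ± 0.34. TNFSF14 (LIGHT), another ligand of the lymphotoxin beta receptor, rose by 3.49 ± 0.26 and TNFRSF12A (the TWEAK receptor gene) by 2.72 ± 0.16. TNFRSF13C, the BAFF receptor gene of B cells, was the gene that fell (-2.43 ± 0.22, named after its values were seen). LTBR itself, named for its role and outside the rule, averaged 127 ± 19.8 CPM with prexasertib and 96.7 ± 10.5 CPM with diluent (0.39 ± 0.14, adjusted p = 0.0269). Of the 12, 7 rose and none fell in U937 with prexasertib (median 0.93), NFKB2 by 2.45 ± 0.21 and RELB by 2.73 ± 0.33, whereas LTBR was at 0.12 ± 0.14 (adjusted p = 0.538). With the combination against prexasertib 7 fell (5 without prexasertib replicate 2) and 1, TNFRSF13C, rose (1.75 ± 0.21, adjusted p = 3.49e-05).

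Of 13 other TNF superfamily ligands 7 were tested. In ML1 with prexasertib 5 rose and none fell (median 2.61), among them TNFSF13B (BAFF, a B cell survival factor) by 4.45 ± 0.20, TNFSF10 (TRAIL, a death ligand) by 3.62 ± 0.18 and CD70 by 2.61 ± 0.14. In U937 with prexasertib 3 rose and 1 fell (2 and 1 without prexasertib replicate 2). TNFSF9 (4-1BB ligand) rose by 1.99 ± 0.19 and CD70 by 0.65 ± 0.14, and the gene that fell was TNFSF13B, at 108 ± 32.7 CPM with prexasertib and 176 ± 17.6 CPM with diluent (-0.71 ± 0.19, adjusted p = 0.0104). The TNFSF13B effect differed between the lines by -5.16 ± 0.27 (adjusted p = 1.51e-09), and that of TNFSF10 by -3.35 ± 0.26 (adjusted p = 8.41e-08). With the combination against prexasertib 3 of the 7 fell (2 without prexasertib replicate 2). TNFSF9 was at 16.2 ± 3.13 CPM with the combination and 63.6 ± 20.9 CPM with prexasertib.

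Of 21 other TNF receptor superfamily members 17 were tested, and 12 rose and none fell in ML1 with prexasertib (median 2.10). TNFRSF10B (TRAIL receptor 2) averaged 707 ± 164 CPM with prexasertib and 95.6 ± 8.01 CPM with diluent. TNFRSF9 (4-1BB) averaged 21.2 ± 8.49 CPM with prexasertib and 0.135 ± 0.0725 CPM with diluent, and FAS, the gene of another death receptor, rose by 2.38 ± 0.19. Of the 17, 7 rose (6 without prexasertib replicate 2) and none fell in U937 with prexasertib (median 0.34). TNFRSF10B was at 152 ± 17.0 CPM with prexasertib and 81.3 ± 1.52 CPM with diluent. With the combination against prexasertib none rose and 5 of 17 fell (3 without prexasertib replicate 2), near the 29% of all tested genes called in either direction, TNFRSF10D by 1.72 ± 0.21 and TNFRSF10B by 0.93 ± 0.14.

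**Figure D3:**
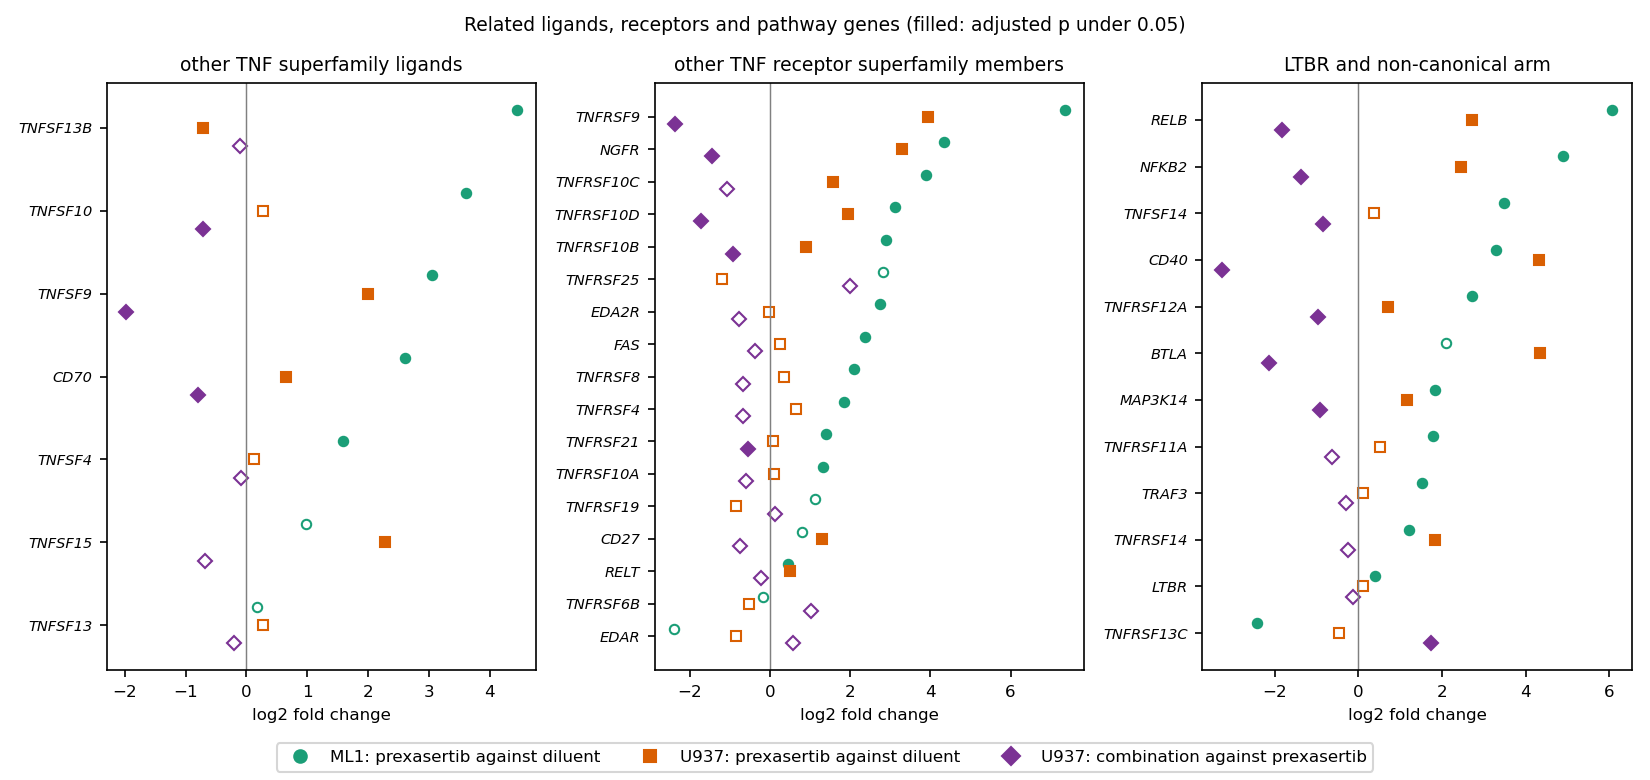
Log2 fold change (horizontal axis) of the tested genes of 3 lists, the other ligands, the other receptors and the lymphotoxin beta receptor arm, in 3 comparisons; filled symbols have an adjusted p under 0.05. Most circles (ML1 with prexasertib, 5 of 7 ligands and 12 of 17 receptors called higher) lie right of 0, and the diamonds (combination against prexasertib) include 3 ligands and 5 receptors called lower.

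Among 11 genes of TNF shedding and membrane processing, changes went both ways. Prexasertib raised 4 and lowered 2 in ML1, so that 6 of 11 were called, near the 48.8% of all tested genes. ADAM17, the protease that releases TNFα, averaged 77.9 ± 17.5 CPM with prexasertib and 29.5 ± 1.74 CPM with diluent (adjusted p = 2.49e-07). RHBDF2 (iRhom2), which carries ADAM17 to the cell surface, averaged 47.8 ± 4.5 CPM with prexasertib and 8.80 ± 0.721 CPM with diluent. Of the intramembrane proteases that cut TNFα after shedding, SPPL2A rose by 0.98 ± 0.14 and SPPL2B fell by 0.49 ± 0.11. In U937 with prexasertib 3 rose and 4 fell (1 and 1 without prexasertib replicate 2, in a comparison with 31.1% of all genes called), with ADAM17 at 0.47 ± 0.14 (adjusted p = 0.0165) and RHBDF2 at -0.47 ± 0.15 (adjusted p = 0.0219). The RHBDF2 effect differed between the lines by -2.91 ± 0.21 (adjusted p = 2.59e-08). With the combination against prexasertib 3 rose and 4 fell, and RHBDF2 was among those that rose (0.69 ± 0.14, adjusted p = 0.00216). ADAM17, named for its role and outside the rule here, was among those that fell (-0.58 ± 0.14, adjusted p = 0.00468).

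Around the locus, 16 neighbouring genes were tested. Of these, in ML1 with prexasertib 9 rose and 2 fell (median 0.53). The largest neighbouring change was that of NCR3 (1.92 ± 0.35, adjusted p = 0.00024), a natural killer receptor gene, compared with 5.65 for TNF and 4.14 for LTA. LST1, a leukocyte gene, averaged 156 ± 32.6 CPM with prexasertib and 52.4 ± 5.46 CPM with diluent, while NFKBIL1 averaged 27.6 ± 4.97 CPM with prexasertib and 13.5 ± 2.01 CPM with diluent. LY6G5C and ABHD16A rose by 1.72 ± 0.30 and 0.73 ± 0.10. Prexasertib raised 5 of the 16 in U937 (1 without prexasertib replicate 2) and lowered none (median 0.17), which is close to the 31.1% of all tested genes called in either direction, and LST1 was at 0.14 ± 0.19 (adjusted p = 0.595). With the combination against prexasertib 1 rose and 2 fell (1 without prexasertib replicate 2), MICB among them (-0.63 ± 0.12, adjusted p = 0.000791). DDX39B, a helicase gene that cells in general express, had a mean of 0.467 CPM or less in every group. Several gene models here overlap, and whether alternative copies of this region were in the alignment index is not given in the sources used here.

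**Figure D4:**
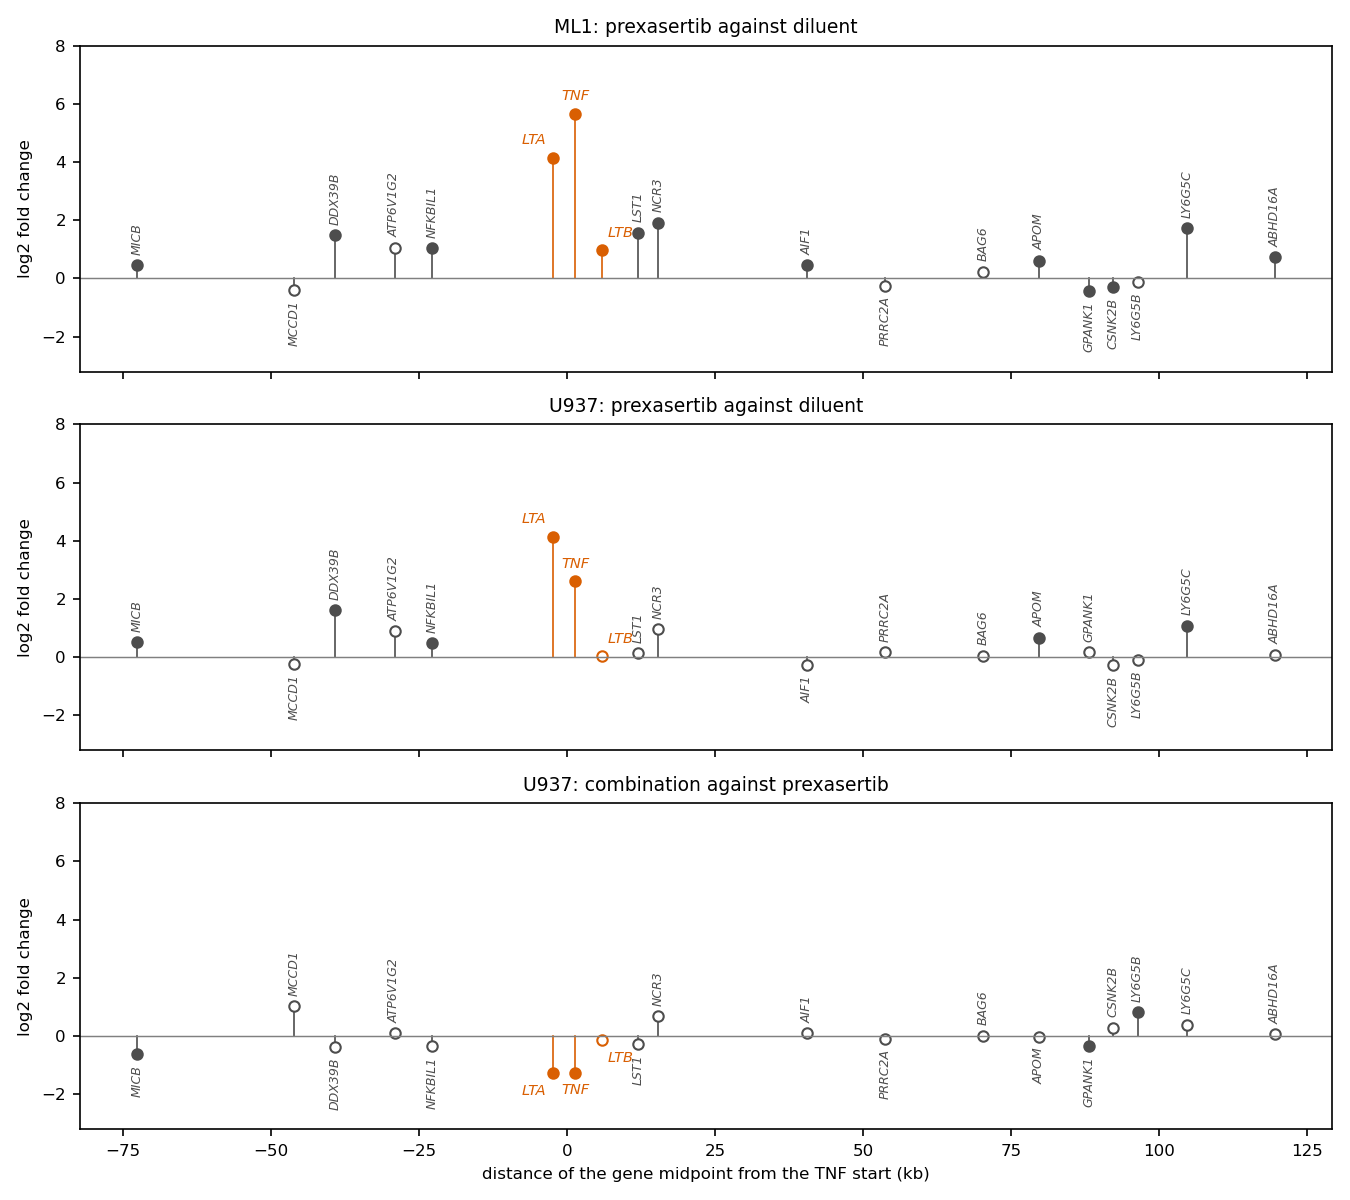
Log2 fold change (vertical axis) of LTA, TNF and LTB (orange) and 16 neighbouring genes (grey), placed by the distance of the gene midpoint from the TNF start in kb, in 3 comparisons; filled points have an adjusted p under 0.05. In ML1 with prexasertib TNF (5.65) and LTA (4.14) stand above LTB (0.98) and above all 16 neighbours (at most 1.92).

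Markers of cell state moved in the same comparisons. In ML1 with prexasertib 12 of 18 myeloid markers rose and 4 fell (median 1.61). The monocyte and macrophage genes LYZ and CD68 averaged 3627 ± 733 and 354 ± 29.4 CPM with prexasertib, against 514 ± 121 and 68.8 ± 2.67 CPM with diluent. FCER1G, an Fc receptor subunit gene, and ITGAM, the gene of CD11b, rose by 3.44 ± 0.15 and 2.18 ± 0.17. Those that fell were the granule genes MPO, ELANE, AZU1 and PRTN3 (named after their values were seen), with ELANE at -1.20 ± 0.21. The summed myeloid level was between 7305 and 10100 CPM with prexasertib and between 7220 and 9199 CPM with diluent. In U937 with prexasertib 2 of the 18 rose and 3 fell (1 and none without prexasertib replicate 2, beside 31.1% of all genes called), with sums of 2010 to 2421 CPM with the combination, 1613 to 2280 CPM with prexasertib and 2655 to 3286 CPM with diluent. Of these markers 11 had a called lower effect in U937 than in ML1, and 1 a called higher effect. Over all tested genes 12.3% were called lower and 12.4% higher in that interaction.

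Lymphocytes are the cells best known for the lymphotoxins, and 13 of 19 of their markers were tested. Of these, in ML1 with prexasertib 4 rose and 2 fell, near the 48.8% of all genes called, with summed levels of 72.9 to 89.5 CPM, against 26.8 to 28.3 CPM with diluent. PAX5, a B cell transcription factor gene, averaged 14.3 ± 9.14 CPM with prexasertib and 0.0748 ± 0.0752 CPM with diluent, and IL7R, a cytokine receptor gene, rose by 4.69 ± 0.45. CD79A, a gene of the B cell receptor complex named after its values were seen, fell by 1.51 ± 0.30. In U937 the sums were 313.6 to 349.4 CPM with the combination, 223.5 to 328.8 CPM with prexasertib and 339.9 to 380.2 CPM with diluent. NKG7 (173 CPM) and CD4 (138 CPM) made up most of the sum with diluent. With prexasertib in U937 3 markers rose (2 without prexasertib replicate 2) and none fell. CD22, a B cell surface gene, was the strongest of them (2.49 ± 0.31, adjusted p = 4.06e-05). Among 15 markers of non-blood cells the epithelial gene EPCAM was at 0 counts in all 15 libraries. Of the 7 tested, 3 rose with prexasertib in each line (2 in U937 without prexasertib replicate 2). Apart from PECAM1 in ML1, the genes that rose were near the floor, with group means of at most 1.203 CPM. The sum over all 15 was 225.6 to 306.2 CPM in ML1 with prexasertib, against 49.94 to 59.73 CPM with diluent. In U937 it was 44.02 to 51.08 CPM with the combination, 39.07 to 56.14 CPM with prexasertib and 49.32 to 71.61 CPM with diluent. PECAM1, an endothelial marker that leukocytes also express, made up most of the ML1 sum (246 CPM with prexasertib and 48.4 CPM with diluent). The part of these shifts in the changes of the 5 genes was not tested.

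Genes with the most similar pattern were found by the root mean square difference of centred log2 CPM over the 15 libraries, among 13334 genes. For TNF they were CCL2 (0.55), CXCL2 (0.57), NFKBIA (0.59), PHLDA1 (0.60) and IRF7 (0.60), where the TNF values themselves had an SD of 2.34. For LTA they were LRP1 (0.57), REM2 (0.65), NFKBIZ (0.76), TRAF1 (0.77) and PYGM (0.82). TNF and LTA stood 0.99 from each other, which is farther than any of these. LTB lay nearest to POLD4 (0.19), SLC48A1 (0.20), PLTP (0.21), AP5B1 (0.22) and PBXIP1 (0.23). TNFRSF1A was nearest to DOK1 (0.094), RPL30 (0.125), RPL12 (0.129), PLIN3 (0.131) and RPL39 (0.139). TNFRSF1B was nearest to PGD (0.152), ST3GAL2 (0.153), C9orf89 (0.170), ECD (0.172) and LYN (0.172). For the receptors and LTB small distances go with a small range, since their own SDs were 0.27, 0.33 and 0.78.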

How the data were processed

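RNA was column-extracted and made into libraries with a TruSeq kit that does not mark strand, per the labels' protocols. The deposited values are unnormalized counts, 1 row a symbol. The submitters' processing notes name TopHat2 2.0.14, featureCounts 1.4.6 (Subread), Bowtie2 2.2.6 and hg38, while the sources used here give neither the annotation nor the counting options. Coordinates and exon lengths are from GENCODE v29 (GRCh38), to which 23824 symbols (90%) were matched, and promoters from RefSeq (GRCh38.p14).

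Counts were fitted in R 4.3.3 with edgeR 4.0.16 (filterByExpr by group, 17243 genes, TMM factors 0.923 to 1.111, 1 robust quasi-likelihood model with a mean per group over all 15 libraries, Benjamini-Hochberg over all tested genes, threshold 0.05). Standard errors are from that fit, and ratios used exact permutation tests. Library totals were 49011222 to 87301014 counts, and floors of 3 counts cover counting error only. The edgeR steps were tested on simulated data for prexasertib against diluent in U937 only. Changes were set there in well-counted genes, so genes with few counts, the other comparisons and the ratio tests were not covered.

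The 5 genes and the gene lists were chosen with earlier results of these data known. The pool of genes to name held, per list and comparison, up to 4 called genes with the smallest p, for marker lists those with the highest level and those at 0, all genes around the locus, and for each of the 5 genes its 5 nearest genes of at least 1 CPM. The text names part of that pool, and names genes outside it where it says so. Some genes may not be reported here, though list counts include them. Alternatives were DESeq2 1.42.0, edgeR with DESeq2's scaling or upper-quartile scaling, no filter, at least 5 CPM in 3 libraries, the groups compared only, a replicate block, and each library left out. Deviations from group means correlated at 0.409, 0.37 and 0.384 between same-numbered combination and prexasertib libraries, each over 0.1. The replicate block was therefore taken as allowed for these 2 groups, although no label states a pairing. The main fit and the ratio tests left it out. No other pair of groups had every correlation over that limit. Between U937 diluent and combination libraries they were 0.386, 0.268 and 0.048, and between U937 diluent and prexasertib libraries 0.317, 0.102 and 0.062.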

Additional observations from a re-analysis of the deposited data

Results flagged for a closer look

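The prexasertib effect on TNF differed between the lines, with an interaction of -3.05 ± 0.54 on the log2 scale (U937 minus ML1, adjusted p = 0.000791, edgeR quasi-likelihood test). TNF was higher with prexasertib in 3 of 3 libraries of each line, and the difference was called when each library was left out (-3.49 to -2.75, adjusted p up to 0.00353).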

How the results depend on the processing

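The 30 member comparisons gave 408 values under the alternatives. Of these 348 kept direction and side of the threshold, 21 lost a call, 16 gained a call and 23 changed sign with no call in either fit. LTA and LTB could not be given under the stricter filter, which removes them. The cause of the changes below was not tested. DESeq2 size factors moved TNFRSF1A in ML1 to 0.012 and the TNFRSF1B interaction to -0.64 (adjusted p = 0.0419). Upper-quartile factors moved these to 0.024 and -0.60 (adjusted p = 0.0486), the LTA interaction to 0.0024 and LTA for the combination against prexasertib to -1.22 (adjusted p = 0.0598). With no filter TNF was -1.27 against prexasertib (adjusted p = 0.0646) and 1.33 against diluent (adjusted p = 0.116) in the combination. With the stricter filter TNFRSF1A in ML1 was 0.064, TNFRSF1B in U937 with prexasertib 0.006 and the TNFRSF1B interaction -0.60 (adjusted p = 0.0406). In a fit to the groups compared, TNFRSF1A was 0.0083 in ML1 and 0.30 for U937 against ML1 (adjusted p = 0.0445), LTA -1.28 against prexasertib (adjusted p = 0.0743) and TNFRSF1B -0.43 against diluent (adjusted p = 0.0268) in the combination. In DESeq2 TNFRSF1A in ML1 was 0.011, the LTB and TNFRSF1B interactions -0.97 (adjusted p = 0.0395) and -0.64 (adjusted p = 0.0328), and TNFRSF1B for the combination against diluent -0.46 (adjusted p = 0.0451).

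With the replicate block, TNFRSF1B was -0.35 for the combination against prexasertib (adjusted p = 0.00632). The block was also fitted for pairs of groups in which not every correlation was over 0.1. There TNFRSF1B was -0.43 (adjusted p = 0.000761) and TNFRSF1A -0.23 (adjusted p = 0.0381) for the combination against diluent. LTA was -1.89 (adjusted p = 0.0675) for U937 against ML1. The block changed no other call of the 5 genes. It raised the genes called for the combination to 3733 higher than with prexasertib (2048 without it), and against diluent to 2820 higher and 2924 lower (1186 and 709 without it). The 709 were 236 with upper-quartile factors, 273 with the stricter filter and 1452 in DESeq2. The 2209 genes lower in U937 with prexasertib were 1449 with the stricter filter and 1008 in a fit to the groups compared.

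Leaving out each library gave ranges, for the combination against diluent, of 0.90 to 1.60 (TNF) and -0.33 to 0.087 (LTB), and against prexasertib of -1.70 to -0.86 (TNF), -1.58 to -0.64 (LTA) and -0.085 to 0.20 (TNFRSF1A). For U937 against ML1 they were -2.23 to -1.22 (LTA) and -1.05 to -0.64 (LTB), and for the interaction -0.67 to 0.42 (LTA), -1.16 to -0.68 (LTB) and -0.76 to -0.36 (TNFRSF1B). In ML1 they were 0.29 to 0.68 (TNFRSF1B) and -0.20 to 0.19 (TNFRSF1A), and in U937 with prexasertib -0.19 to 0.23 (LTB). Genes called ranged from 1803 to 3565 higher and 881 to 2727 lower in U937 with prexasertib, from 1105 to 2108 higher and 1794 to 3057 lower for the combination against prexasertib, and from 425 to 1061 higher and 179 to 714 lower against diluent. Depth limits LTA in U937 with diluent, which rests on 7, 0 and 6 counts.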
